A study of Mus musculus with 14 samples.

Results

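The 10 genes described here encode the core of the mouse circadian clock: Clock, Arntl, Per1, Per2, Per3, Cry1, Cry2, Nr1d1, Nr1d2 and Dbp. They were taken by name from 21938 protein-coding genes of the mouse chromosomes (GENCODE M21, mm10), without use of any measured value. All 10 were found. For each, the H3K4me1 sites were mapped over the gene and 20 kb on either side, here called the locus, relative to the transcription start sites (TSSs) and to CpG islands.

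The clock is a transcriptional feedback loop that runs in most cells of the body, cultured fibroblasts included. CLOCK and BMAL1, the product of Arntl, form a heterodimer that binds E-boxes and activates the Per, Cry, Nr1d and Dbp genes. PER and CRY proteins then inhibit the heterodimer, while the nuclear receptors REV-ERB alpha and beta, the products of Nr1d1 and Nr1d2, repress Arntl at ROR elements. DBP is an output of the loop and activates genes through D-boxes. Monomethylation of lysine 4 of histone H3 (H3K4me1) is found at enhancers and on the flanks of active promoters.

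The cells were NG3, a clone of immortalized mouse embryo fibroblasts (iMEF) with floxed Ash2l alleles. In these cells the endogenous gene was deleted by an inducible Cre and replaced by human ASH2L fused to FKBP and HA tags (FKBP-HA2-ASH2L), which the compound dTAG-13 sends to degradation. ASH2L is a core subunit of the KMT2 methyltransferases, and untreated and treated cells share this genotype. The ChIP-seq libraries comprise 12 from H3K4me1 ChIP, namely 2 replicates each without dTAG and after 30 min, 2, 4, 8 and 16 h of dTAG, and 2 from input chromatin, untreated and at 16 h. The deposited table is a single set of 160144 sites found across all samples, 160108 of them on chromosomes, with positions only.

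The set holds no read count, no library and no time point. Every value below therefore describes where H3K4me1 was called in at least part of the time course, without replicates, and no test between conditions could be made. According to the paper, the sites that gained H3K4me1 after dTAG lay nearly all at promoters. Whether a promoter site, gap or covered TSS described below was present in untreated cells cannot be told from this set. Levels among protein-coding genes are given beside those of the clock genes as a description. No p-value is given for them, since genes chosen by name are not replicates of each other. As a check of the cell label, 7 of 8 fibroblast markers had a site within 1 kb of the TSS, all but Col3a1, with 6.69 to 63.4% of the locus covered by sites (median 24.3%). Of 8 markers of epithelium, blood, endothelium and neurons, 2 had one, Epcam and Cdh1, and coverage was 0.157 to 18.7% (median 5.96%). Among all coding genes 64.5% had such a site, and the median coverage was 7.56%. Col3a1 and Pdgfra lay below that median and the other fibroblast markers above it. Of the markers of other cell types, Cdh1 and Pecam1 lay above it and the rest below. A site shows a mark and not expression.

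All 10 clock genes had an H3K4me1 site within 1 kb of the main TSS, where 64.5% of protein-coding genes and 93.0% of those with a CpG island had one. A CpG island lay within 1 kb of the TSS in 8 of the 10, against 54.6% of coding genes. Per1 and Nr1d1 were without an island and had a site, as did 30.2% of coding genes without one. The TSS itself showed one of 2 arrangements. In 6 genes (Arntl, Per2, Per3, Nr1d1, Nr1d2 and Dbp) it lay in a site-free gap with a site on each side, which was the case for 14.1% of coding genes and 23.9% of island genes. In the other 4 (Clock, Per1, Cry1 and Cry2) a site ran across the TSS, as in 40.3% of coding genes and 56.9% of island genes. Within families, the Per genes were split, since Per2 and Per3 had a gap and Per1 did not, while both Cry genes were covered and both Nr1d genes had a gap. Of the activators, Arntl had a gap and Clock did not.

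**Figure D1:**
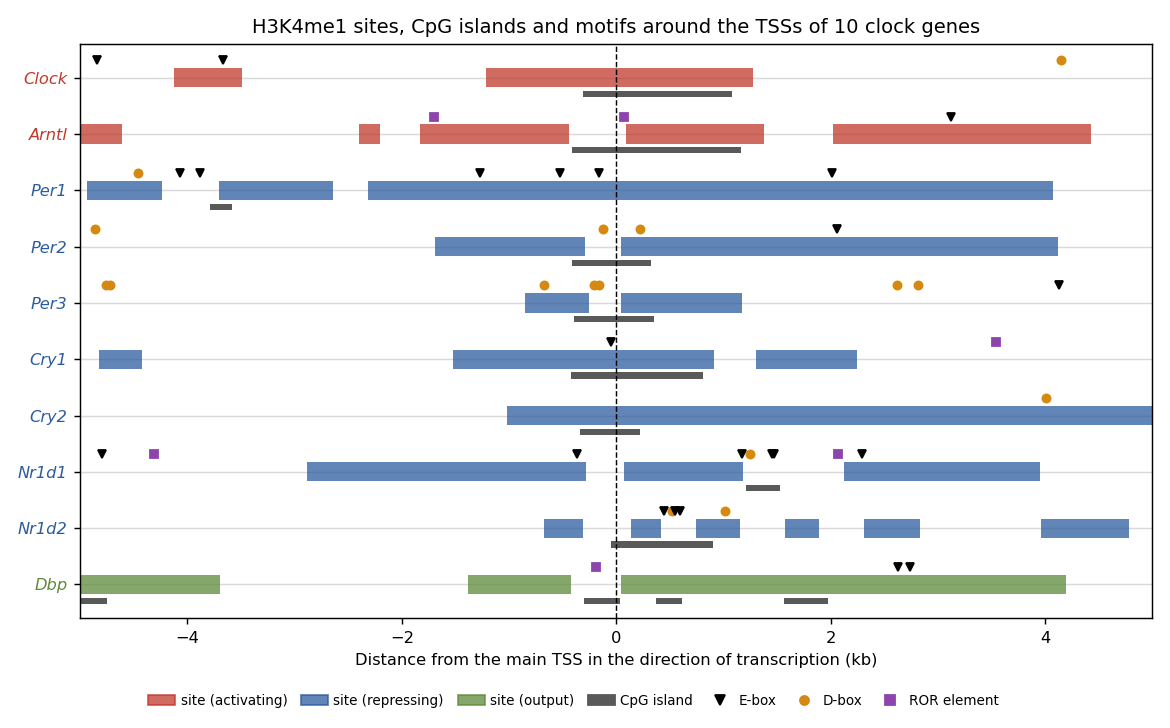
H3K4me1 sites (bars, coloured by arm), CpG islands (grey bars) and matches to 3 motifs (symbols) within 5 kb of the main TSS of each clock gene, plotted by distance from the TSS in kb in the direction of transcription. The dashed line at the TSS falls in a gap between sites in 6 genes and inside a site in Clock, Per1, Cry1 and Cry2, and the Cry2 site runs on beyond the right edge.

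Short sequences are printed for all matches to 3 clock motifs within 1 kb of the main TSSs, because they show which clock elements lie under H3K4me1 and which lie in the gap or beside the sites. Each is 30 bases of GRCm38.p6 (mm10) in the direction of the gene, with the motif in capitals. The motifs searched on both strands were the E-box CACGTG, the D-box TTATGTAA or TTACGTAA, and the ROR element, which is AGGTCA with a T before it and an A 3 bases before that T. The E-box reads the same on both strands, and none of the matches shown overlaps another motif of the 3.

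Inside H3K4me1 sites lay 4 of the E-boxes, at Per1, Cry1 and Nr1d1, and 2 of the D-boxes, at Per2 and Per3.
Per1 E-box 528 bp upstream of the TSS, plus strand, chr11:69098408-69098437: accccttaacgaCACGTGggccctcaattg
Per1 E-box 165 bp upstream, plus strand, chr11:69098771-69098800: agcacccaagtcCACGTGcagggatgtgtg
Cry1 E-box 50 bp upstream, minus strand, chr10:85185097-85185126: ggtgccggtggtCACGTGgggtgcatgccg
Nr1d1 E-box 367 bp upstream, minus strand, chr11:98775683-98775712: cagttctccaatCACGTGaagctctcacgt
Per2 D-box 222 bp downstream, minus strand, chr1:91459084-91459113: ccgtggtcgtcTTACGTAAccggcggctcg
Per3 D-box 670 bp upstream, minus strand, chr4:151045317-151045346: ggtagagacagTTATGTAAaaggagcatcc

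In the site-free gap over the TSS lay 3 D-boxes, at Per2 and Per3, and the ROR elements of Arntl and Dbp.
Per2 D-box 125 bp upstream, minus strand, chr1:91459431-91459460: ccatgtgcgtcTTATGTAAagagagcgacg
Per3 D-box 205 bp upstream, minus strand, chr4:151044852-151044881: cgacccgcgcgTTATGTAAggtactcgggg
Per3 D-box 158 bp upstream, minus strand, chr4:151044805-151044834: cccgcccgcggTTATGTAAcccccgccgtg
Arntl ROR element 73 bp downstream, in the 5′ UTR, plus strand, chr7:113207528-113207557: ggaaggcagaAAGTAGGTCAgggacggagg
Dbp ROR element 192 bp upstream, plus strand, chr7:45704886-45704915: cattggccaaATATAGGTCAgtgtcccgcc

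Outside both lay 3 E-boxes and 1 D-box of Nr1d2, the last on the opposite strand to the letters above and so read here as its reverse complement.
Nr1d2 E-box 449 bp downstream, minus strand, chr14:18238661-18238690: tgccgcactggcCACGTGcacggtgtgttt
Nr1d2 E-box 552 bp downstream, minus strand, chr14:18238558-18238587: ggcgggcggagaCACGTGaggccgcggggc
Nr1d2 E-box 597 bp downstream, minus strand, chr14:18238513-18238542: gggccggaggaaCACGTGggggcggtgccg
Nr1d2 D-box 517 bp downstream, minus strand, chr14:18238592-18238621: gtgacgcagcaTTACATAAtgcgagctggg

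Clock, a basic helix-loop-helix PAS protein and with BMAL1 the activating arm, lies on the minus strand of chromosome 5 from 76209868 to 76304792 (94.9 kb). Its TSS at 76304792 was covered by a site of 2489 bp, from 76303517 to 76306005, which reached 1213 bp upstream and 1275 bp downstream. The CpG island of 1392 bp that holds the TSS was covered over its whole length. Gm7467, an antisense transcript, starts 84 bp upstream of Clock under the same site. The gene body, here the gene more than 1 kb from any of its TSSs, held 4 sites, of 211 to 572 bp. This was 0.436 per 10 kb, against a median of 0.238 for coding genes and 0.618 for island genes. All 4 lay in later introns, the last of them ending 22864 bp downstream of the TSS. The 72060 bp from there to the 3′ end held no site. In that stretch 83.6% of 75-base words are unique in the genome, so that a part of it could not have been placed by reads of that length. Of the locus, 5.13% was covered, below the median of 7.56% for coding genes and below that of 11% for island genes.

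Arntl, which encodes BMAL1, lies on the plus strand of chromosome 7 from 113207465 to 113314126 and was the contrary case within the activating arm. Its TSS lay in a gap of 539 bp, from 113207021 to 113207559, between an upstream site of 1386 bp that ended 445 bp before the TSS and a downstream site of 1283 bp that began 95 bp after it. The other starts of this promoter, 61 and 92 bp downstream, lay in the same gap, and so did the ROR element printed above, the type of element through which REV-ERB proteins repress this gene. The gap lay over a CpG island of 1572 bp, 67.9% of which was covered by the flank sites. A second ROR element, 1702 bp upstream, lay inside the upstream site.

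The gene body of Arntl held 20 sites, 8 of them in the first intron, 11 in later introns and 1 centred in an exon. This was 2.01 sites per 10 kb, against a median of 0.238 for coding genes and 0.618 for island genes. The widest were 4219, 4169 and 3921 bp and were centred at 43616, 33911 and 53943 bp downstream of the TSS. The 20 kb upstream were covered at 32.9% by 10 sites, none of which lay near a TSS of another gene, and the 20 kb downstream at 4.89% by 2 sites. A site-free stretch of 36650 bp separated the other body sites from a site of 1952 bp near its 3′ end. The locus as a whole was covered at 23.8%.

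**Figure D2:**
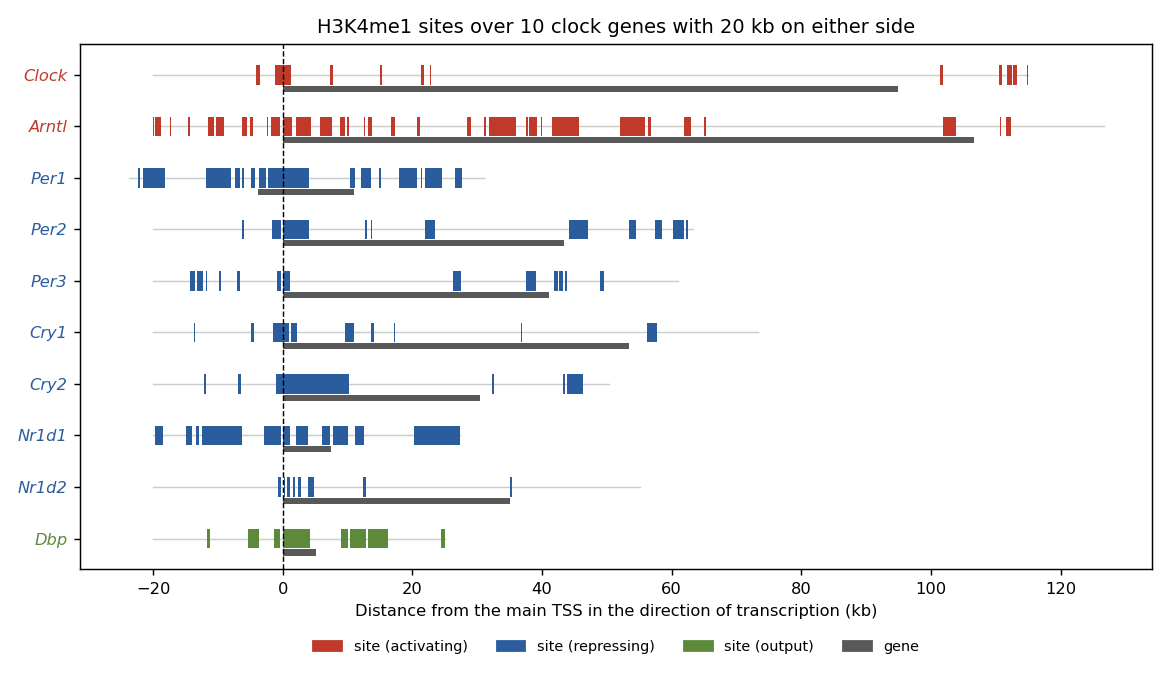
H3K4me1 sites (coloured bars) over each clock gene (grey bar) and 20 kb on either side, plotted by distance from the main TSS in kb in the direction of transcription. Arntl carries sites along most of its gene and upstream flank. Away from the TSS, the sites of Clock and Nr1d2 are all under 1 kb wide. The Per1, Nr1d1 and Dbp genes are short and lie among wide sites.

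The Per genes encode the PAS proteins that carry CRY into the repressive complex. Per1, on the plus strand of chromosome 11 from 69095217 to 69109960, had a site of 6385 bp over its main TSS at 69098948. It ran from 69096632 to 69103016, 2316 bp upstream and 4068 bp downstream, and was wider than 99.55% of all sites. Of the E-boxes within 5 kb of the TSS, those at 1274, 528 and 165 bp upstream and 2015 bp downstream lay in this site, while those at 4065 and 3881 bp upstream lay outside any site. The second promoter of Per1, 3731 bp further upstream, looked different. It has a small CpG island of 204 bp, and its TSS lay in a gap bounded by sites 509 bp upstream and 29 bp downstream. The E-boxes at 4065 and 3881 bp upstream of the main TSS lay in this gap.

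Of the Per1 gene 55% was covered, and of its locus 47.6%, more than in 99.2% of coding genes. Neighbours took a share of this, since the locus holds the starts of Vamp2, Hes7, 9130213A22Rik and Aloxe3, and 5 of its 15 sites lay within 1 kb of one of them. With all bases within 2 kb of the TSSs of other coding genes left out, coverage was 42.4%, still above 99.0% of genes treated alike. The gene body, short once its many starts are set aside, held 1 site, of 857 bp at the 3′ end.

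Per2 lies on the minus strand of chromosome 1 from 91415982 to 91459324. The gap over its TSS was 332 bp, from 91459281 to 91459612, and the site after it began 44 bp downstream of the TSS. The downstream site was 4074 bp wide and the upstream site 1406 bp, a ratio of 2.90. The gap lay wholly within a CpG island of 735 bp and held a D-box 125 bp upstream, a binding motif of DBP and its relatives, while a further D-box at 222 bp and an E-box at 2062 bp downstream lay in the wide site. Apart from the wide site, which is centred in the first intron, the body held 3 sites of 206 to 1548 bp. The locus was covered at 17.8%, and at 13.1% without the surroundings of Hes6 and Ilkap, whose starts lie beyond the 3′ end.

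Per3, on the minus strand of chromosome 4 from 151003652 to 151044665, had the narrowest gap of the 6, 301 bp from 151044623 to 151044923. The downstream site began 43 bp after the TSS, nearly the same distance as in Per2, and this gap too lay wholly in an island, of 750 bp. The sites on its flanks were 595 bp wide upstream and 1127 bp downstream. A pair of D-boxes lay in the gap and another, 670 bp upstream, in the upstream site. The next 25176 bp after the downstream site held none, and the body had 2 sites, of 1204 and 1513 bp, both in later introns. The locus was covered at 11.5%, near the median of island genes.

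The Cry genes encode cryptochromes, the main inhibitors of the CLOCK and BMAL1 heterodimer. Both had a site over the TSS and over the whole of the island there. At Cry1 (minus strand of chromosome 10, 85131700 to 85185064) the site was 2440 bp wide and reached 1525 bp upstream and 914 bp downstream, with the E-box 50 bp upstream inside it. The Cry1 body held 5 sites of 200 to 1406 bp, 4 of them in the first intron, and the locus was covered at 8.49%.

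At Cry2 (minus strand of chromosome 2, 92403646 to 92434043) a single site of 11279 bp began 1022 bp upstream of the TSS and ran 10256 bp into the gene. It was the widest over the 10 loci and wider than 99.93% of all sites. Its centre lay in the first intron, so it counts as the only site of the body, and the 20141 bp from its end to the 3′ end of the gene held none. D930015M05Rik, a transcript of the opposite strand, overlaps Cry2 over 23417 bp. No E-box lay within 5 kb of the Cry2 TSS. The locus was covered at 21.2%, or 24.0% without the bases around the start of Mapk8ip1.

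Nr1d1, on the minus strand of chromosome 11 from 98767932 to 98775333, encodes REV-ERB alpha. Its TSS lay in a gap of 353 bp, from 98775261 to 98775613, without an island within 1 kb. Here the wider site was the upstream one, of 2600 bp against 1107 bp downstream, and an E-box lay near the inner end of the first and another, 1174 bp downstream, at the outer end of the second. A further pair of E-boxes, 1454 and 1469 bp downstream, lay in a CpG island of 321 bp that no site touched. The body of this 7.40 kb gene held 2 sites, or 4.55 per 10 kb, more than in 98.0% of coding genes.

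The Nr1d1 locus was covered at 56.6%, the most of the 10 and more than in 99.7% of coding genes. The upstream 20 kb were covered at 57.7% and the downstream 20 kb at 55.3%. Upstream, a site of 6109 bp lay 6296 to 12404 bp before the TSS, with no start of another gene within 1 kb of it. Downstream, a site of 9204 bp lay at Thra, the gene of thyroid hormone receptor alpha, whose 3′ end overlaps that of Nr1d1 on the opposite strand by 1075 bp. Without bases near TSSs of other coding genes the coverage was 52.7%.

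Nr1d2, the gene of REV-ERB beta on the minus strand of chromosome 14 from 18204054 to 18239127, was at the other end. Its gap of 449 bp, from 18238992 to 18239440, lay between narrow sites of 364 bp upstream and 277 bp downstream. Each of the sites at this promoter was under 500 bp, so that with a minimum width of 500 bp Nr1d2 was the gene that had none. The island of 949 bp begins 46 bp upstream of the TSS and was covered at 46.3%. The cluster of 3 E-boxes printed above, 449, 552 and 597 bp downstream, lay in that island between 2 narrow sites and in neither.

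All 4 body sites of Nr1d2, of 317 to 823 bp, were in the first intron, and the last 22257 bp of the gene held no site. Of its locus 4.58% was covered, the least of the 10. No coding gene other than Nr1d2 starts in this locus, and 90.4% of 75-base words in its site-free bases are unique.

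Dbp, on the plus strand of chromosome 7 from 45705088 to 45710203, encodes a PAR bZIP activator whose mRNA cycles with the clock. Its TSS lay in a gap of 470 bp, from 45704662 to 45705131, and the site after it began 44 bp downstream of the TSS, as at Per2. The upstream site was 961 bp wide and the downstream site 4150 bp, a ratio of 4.32, the highest of the 6. That site covered most of the gene, so that 81.1% of the Dbp gene lay in sites, more than in 98.0% of coding genes, and held a pair of intronic E-boxes, 2624 and 2737 bp downstream. An island of 333 bp over the TSS was not covered at all. The gene is compact, with starts spread over 2801 bp. No site was centred in what remained as its body, although the wide downstream site ran into it. Its locus was covered at 32.3%, among the starts of 6 other coding genes (Car11, Sec1, Rpl18, Sphk2, Fam83e and Spaca4), and at 29% without the bases near them. The RefSeq start of Dbp, 159 bp further downstream, lies within the wide site, as do the other GENCODE starts of the gene. The gap thus belongs only to the GENCODE start taken here as the main TSS.

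Over the 6 genes with a gap, the width was 301 to 539 bp, with a median of 401 bp. Among all 3088 coding genes with such a gap the median was 422 bp and the middle 50% ran from 339 to 567 bp, so the clock genes spanned ranks from percentile 12 to percentile 71.6. In all 6 the downstream edge was nearer to the TSS than the upstream edge, as in 74.7% of genes with a gap. The median distances were 58.5 bp downstream and 302 bp upstream, against 128 and 276 bp. The wider flank differed from gene to gene. The downstream site was the wider one in 3 of the 6 (Per2, Per3 and Dbp), where 71.9% of all genes with a gap had it so. Median widths were 1174 bp upstream and 1205 bp downstream, against 670 and 1204 bp. Every 75-base word in the 6 gaps is unique in the genome.

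**Figure D3:**
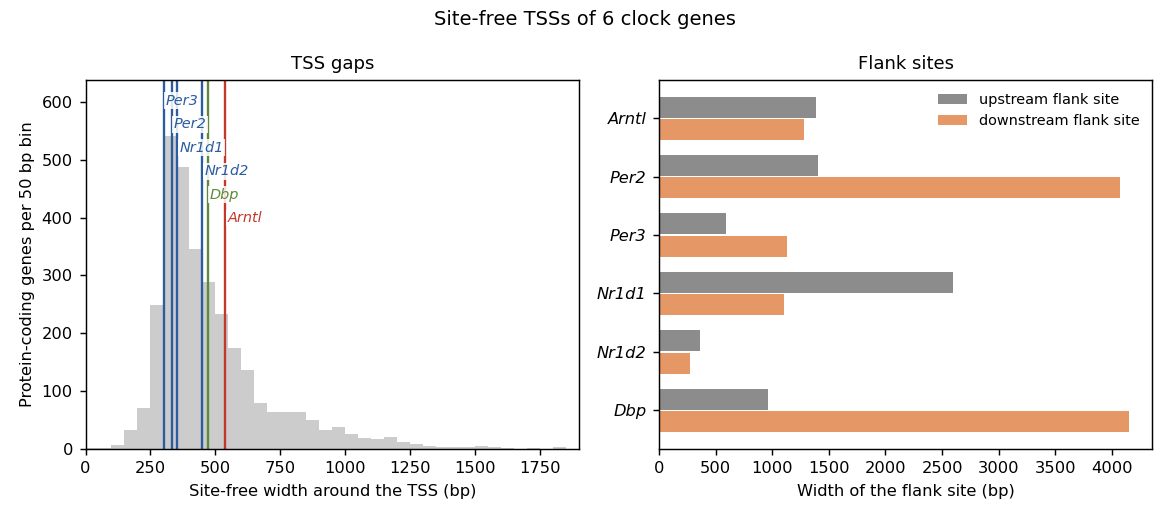
Left, widths in bp of the site-free gap at the TSS in 50 bp bins for all 3088 coding genes with a site on each side (grey bars), with the 6 clock genes as lines; right, widths in bp of the sites on either side of the gap in each gene. The lines fall between 301 and 539 bp, within the bulk of the genes, and the downstream site is the wider one in Per2, Per3 and Dbp.

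Of 125 sites over the 10 loci, 43 were centred in gene bodies, 22 in later introns, 19 in first introns and 2 in exons. A further 15 were centred within 1 kb of a TSS of the gene, 33 in the upstream and 34 in the downstream flanks. Because the centre decides, these 15 are not all the sites that reach a promoter. The site over the Cry2 TSS and the downstream flank site of Per2 count in first introns. The upstream flank sites of Arntl and Nr1d1 count in upstream flanks. The median width of the 125 sites was 712 bp, against 603 bp over all sites, and 4 of the 125, at Cry2, Per1 and Nr1d1, were at least 5000 bp wide. At least 1 body site was present in 9 of the 10 genes, where 53.3% of coding genes and 7887 of the 11969 island genes had one. Cry2 counts among the 9 only through the site over its TSS. The median length of the 10 genes was above that of coding genes and that of island genes. What part length and islands have in this count was not tested. The median number of body sites per 10 kb was 0.988, with a range from 0 in Dbp to 4.55 in Nr1d1. The median falls to 0.526 when sites under 500 bp are left out and to 0.458 when near sites are merged.

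Locus coverage had a median of 19.5% and ran from 4.58 to 56.6%. For coding genes the median was 7.56%, with the middle 50% from 1.87 to 15.6%. From the lowest, the order was Nr1d2, Clock, Cry1, Per3, Per2, Cry2, Arntl, Dbp, Per1 and Nr1d1. The last 3 are the shortest of the genes, of 5.12, 14.7 and 7.40 kb, so that their loci consist mostly of flanks. Among coding genes under 15 kb, 7.72% had more than 30% of the locus covered, and 4.15% of longer ones. What part length and neighbours have in the order was not tested.

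**Figure D4:**
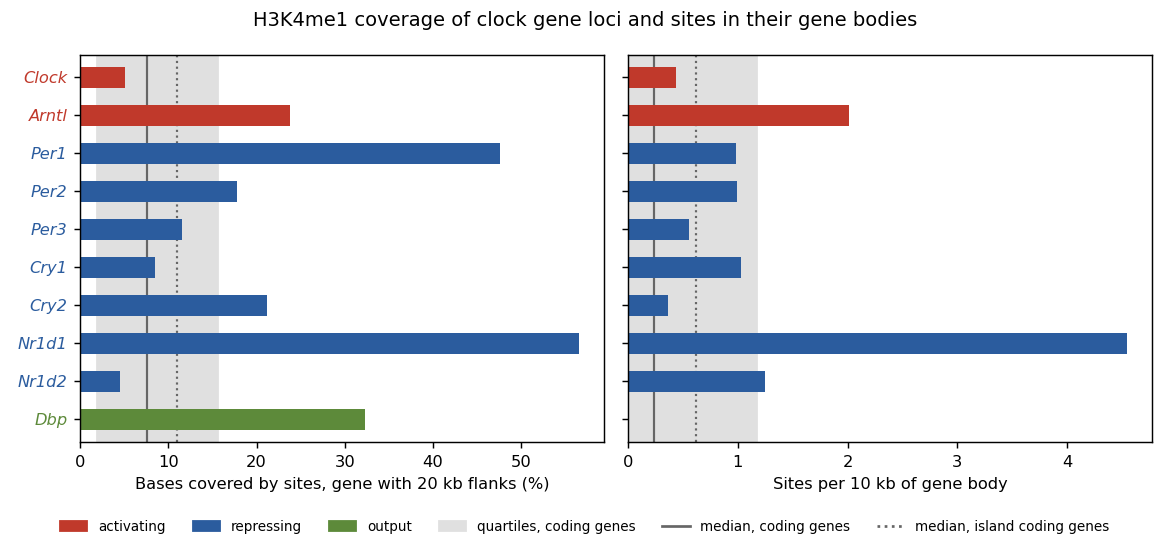
Left, bases covered by H3K4me1 sites in each clock gene with 20 kb flanks in percent; right, sites per 10 kb of gene body; bars are coloured by arm, and grey bands and lines give the quartiles and medians of coding genes and the median of island genes. On the left, Per1, Nr1d1 and Dbp stand above 30% of the locus, and Clock and Nr1d2 fall below both medians. On the right, Dbp has no site centred in its body.

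Comparison of the arms set Clock and Arntl against the 7 repressors. The activating genes were covered at 5.13 and 23.8% of the locus, a median of 14.5%. The repressing genes ran from 4.58 to 56.6%, with a median of 17.8%, so that the values of the first lay within the range of the second. The difference between medians, 3.32 percentage points, was smaller than the distance between Clock and Arntl, and its sign was not stable. With 50 kb on either side the medians were 16.6 and 16.4%, and without bases near the TSSs of other coding genes 14.5 and 13.1%. With 9 more pathway genes added to the arms the difference grew to 6.54 points, from medians of 11.8 and 18.4%.

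For body sites the activating genes had 0.436 and 2.01 per 10 kb and the repressing genes from 0.360 to 4.55, with medians of 1.22 and 0.992. Arntl alone held 20 of the 24 body sites of the activating arm, and the 7 repressors together held 19. At the TSS, 1 of 2 activating genes and 4 of 7 repressing genes had a gap, of 539 bp in Arntl and of 301 to 449 bp in the repressors. The ranges of the arms overlapped in coverage and in body sites, and gaps and covered starts occurred in both. With 2 genes in one arm no test was made.

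Among the motifs, an E-box lay within 1 kb of the TSS in 4 of the 10 genes (Per1, Cry1, Nr1d1 and Nr1d2), against 27.5% of coding promoters and 33.5% of island promoters. From 250 bp before to 50 bp after the TSS, 2 had one, Per1 and Cry1, against 7.76%. A D-box lay within 1 kb in 3 of the 10 (Per2, Per3 and Nr1d2), against 7.08%, and a ROR element in 2 (Arntl and Dbp), against 4.62%. Of 7 E-boxes within 1 kb, 4 lay in sites, 3 between sites and 0 in the gap at the TSS. Of 6 D-boxes, 3 lay in the gap, 2 in sites and 1 outside, and both ROR elements lay in the gap. The E-box genes Per1 and Cry1, with 3 of the 7 E-boxes, have a covered main TSS and so no gap there to hold one. The gap at the second promoter of Per1, which holds E-boxes, lies beyond this window. All genes with a D-box or ROR element here have a gap, and no comparison between motifs was made. These counts come from few genes, a match is not a bound factor, and a missing match says only that these letters are not in the window.

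Over the whole loci, 32 of 123 E-boxes (26.0%) lay in sites, which cover 19.2% of the bases. On chromosomes 1 to 19 and X the shares were 9.81% of 262959 E-boxes and 5.83% of the bases. Per1 had 10 of its 14 E-boxes in sites (71.4%, with 47.6% of its locus covered) and Nr1d1 8 of 15 (53.3%, with 56.6%). These were the genes with the most covered loci, while none of the 7 at Nr1d2 lay in a site. The share was above the coverage of the locus at Clock, Arntl, Per1, Per2 and Cry1. At Per3, Cry2, Nr1d1, Nr1d2 and Dbp it was below. For D-boxes, 13.1% over the loci lay in sites, and 3.04% over the chromosomes, both below the share of bases covered. For ROR elements the shares were 17.9 and 5.70%, near those of the bases.

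The other genes of the clock pathway gave a setting for these values. They were 19 genes for paralogs of the activators (Npas2, Arntl2), ROR receptors, further repressors (Ciart, Bhlhe40, Bhlhe41, Nfil3), relatives of DBP (Tef, Hlf), and kinases, ubiquitin ligases and other partners of PER and CRY. All 19 had a site within 1 kb of the TSS, against 64.5% of coding genes and 93.0% of island genes. An island lay there in 17, against 54.6% of coding genes. A gap with a site on each side was found in 3, which were named after their values were seen: Nfil3 with 378 bp, Csnk1d with 558 bp and Timeless with 619 bp. Among coding genes 14.1% had such a gap, and among island genes 23.9%. In 14 of the 19 the TSS was covered, against 40.3% of coding genes and 56.9% of island genes. Locus coverage had a median of 17.2%, from 3.55% in Rorb to 39.5% in Usp2. Body sites were present in 15 of the 19, against 53.3% of coding genes and 7887 of the 11969 island genes. Their median number was 1.26 per 10 kb. The 19 genes, too, were longer at the median than coding genes and island genes.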

How the data were processed

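H3K4me1 ChIP-seq was performed on 12 libraries, in 6 conditions with 2 replicates each, and 2 inputs were sequenced. The values in the deposited file are positions (chromosome, start and end) in 1 table pooled over all samples, and it holds no score or count per library. According to the labels' processing notes and the paper's methods, the authors aligned reads to mm10 with BWA, filtered with SAMtools and called peaks with MACS2. Versions and thresholds are not given in the sources used here. Depth per library is unknown, replicates could not be compared, and groups entered no test. The paper's methods list H3K4me1 among the marks called as broad peaks. Called sites depend on depth, and neighbouring sites may be one domain split by the caller.

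Positions were compared with GENCODE M21 and GRCm38.p6 (RefSeq copy of the sequence) in Python 3.11.15 with numpy 2.4.6, pandas 2.3.3 and numba 0.67.0, and matplotlib 3.10.9 drew the figures. Release M25 was not used here. The main TSS was that of the APPRIS principal coding transcript (21851 of 21938 coding genes), otherwise the most upstream. Sites with 1 bp of overlap counted. CpG islands (16099) were over 200 bp, with at least 50% GC and an observed to expected CpG ratio over 0.6, on repeat-masked sequence. The percentile of a gene is its rank among coding genes. Functions were tested on simulated data: 2000 of 2000 TSS states, 2000 of 2000 coverages and 50 of 50 planted islands were right.

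Named were the 10 genes, genes that start in their loci, the most alike gene of each (not reported here for Arntl, Cry1 and Dbp), and, of 19 other pathway genes, those at the extremes of coverage; others of the 19 are named as members of the list or, for their gaps, after their values were seen. The members, lists and rules were chosen with earlier results of these data known. Alternatives concerned the TSS, minimum width, merging, windows, overlap, flank length, island length and make-up of the arms. Those without bases near other TSSs and with RefSeq starts (9 of 10 genes matched) were added after the data were seen.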

Additional observations from a re-analysis of the deposited data

How the results depend on the processing

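Of 50 alternative values for 13 results, 41 stayed within 1.5 times the reported value, 7 moved further and 2 changed sign. With sites under 500 bp left out, the median number of body sites per 10 kb was 0.526, and with sites less than 1 kb apart joined it was 0.458. Joining also left 0 genes with a gap at the TSS and 10 with a covered TSS, as it must for gaps this narrow, so no width of gap or flank could be computed. The difference in locus coverage, repressing minus activating arm (3.32 percentage points), became 1.91 with 10 kb flanks, -0.236 with 50 kb flanks, 6.54 with 9 pathway genes added to the arms, and -1.48 without bases within 2 kb of a TSS of another coding gene, an alternative chosen after the data were seen. With the window from 250 bp before to 50 bp after the TSS, 2 genes had an E-box. With the most upstream TSS, 7 genes had a gap, since Per1 then joined, and with RefSeq starts 4 of the 9 genes matched had one. The causes of these shifts beyond the construction of each alternative were not tested. No paired analysis was possible because the deposited set of sites holds no value per library. Depth, time points and replicate error cannot be recovered from it, and a site-free base is only one where no site was called.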

Other observations

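The 10 genes have 40 annotated TSSs between them. A site covered 18, 11 lay in a gap with a site on each side, 2 had a site within 1 kb on 1 side, and 9 had none within 1 kb. No share over the starts of all coding genes stands beside this split. Of 11 starts that lie more than 5 kb downstream of the main TSS, 9 had no site within 1 kb, where 75.4% of 25312 such starts of all coding genes had none. The only one of them that was covered was that of Arntl-202, a retained intron 32289 bp downstream of the main TSS, which lay in a site of 4169 bp. The start of Clock-204, a coding transcript that begins 30780 bp downstream, was 7916 bp from the nearest upstream site. The 3 internal starts of Cry1 were 3001 bp or more from any site.

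Of 28 CpG islands in the loci, 13 were wholly covered by H3K4me1 sites, 9 in part and 6 not at all. A share over all CpG islands of the chromosomes does not stand beside this split, so it describes these loci only. The 6 without coverage included the island of 333 bp over the Dbp TSS and the one of 321 bp in the body of Nr1d1. The others lay in the flanks of Per1, Cry2 and Dbp.

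For 7 of the clock genes, the coding gene with the most similar placement of sites over 5 kb on either side of the TSS is given by the Jaccard index, the bases covered in both over the bases covered in either. Among these the index was highest for Cry2, whose wide site was matched by Bmp1 at 0.996. It was 0.939 for Per2 with Aimp2, 0.931 for Per3 with Ankrd9, 0.915 for Clock with Tom1l1, 0.891 for Per1 with Ccnd1 and 0.838 for Nr1d1 with Slc25a29. For Nr1d2, with its row of narrow sites, the best of all coding genes was Orai1 at 0.597. Within the 10, the most alike were Per2 and Dbp at 0.734, the genes whose downstream sites are the widest beside a gap. With one best gene taken from so many, high values are found by search, and they describe placement only.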
